A study of Gossypium hirsutum with 18 samples.

Results

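The high-numbered genes of cotton chromosome D11, a stretch that holds candidate genes for resistance to root-knot nematode, were followed in the roots of 3 genotypes with and without the nematode. The genes were taken by identifier, from Gohir.D11G305000 to Gohir.D11G335000, and kept where their mean over the 18 libraries was at least 1 in the units of the deposited table. The range held 255 identifiers. Of these, 51 had a mean below 1, and the candidate resistance gene Gohir.D11G312800 was set aside, which left 203 of the 54508 genes in the table as members. The order of the genes was read from the identifier numbers and was not checked against a map, and genes between members can be unlisted. The identifiers could not be paired with gene names or sequences here, since 0 of them matched the RefSeq table at hand, so the members are described by identifier and by level, without a function.

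Upland cotton (Gossypium hirsutum) is an allotetraploid with an A and a D subgenome, and chromosomes A11 and D11 are counterparts. Root-knot nematodes such as Meloidogyne incognita enter the root as juveniles and turn a few vascular cells into giant feeding cells, around which the root swells into a gall. Plants detect the effector proteins that nematodes inject through intracellular receptors of the nucleotide binding site and leucine-rich repeat class, called resistance or R proteins, of which the TIR-NBS-LRR proteins are one branch. Genes of this class often lie in clusters of near-identical copies, and the copies present can differ from one variety to the next. Earlier mapping placed resistance factors of the cultivar NemX on A11 and D11, while that of WMJJ was mapped to another chromosome.

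The roots came from Acala SJ-2 (SJ2, susceptible), Wild Mexico Jack Jones (WMJJ, described as moderately tolerant or moderately resistant) and Acala NemX (NemX, resistant), each grown in soil in a greenhouse. Seedlings of 12 days received 5000 J2 juveniles of M. incognita per plant (rkn) or were not infested (ctl), and whole-root RNA was taken from plants of 23 days. The 6 groups are named SJ2_ctl, SJ2_rkn, WMJJ_ctl, WMJJ_rkn, NemX_ctl and NemX_rkn, and each had 3 libraries that are labelled as biological replicates. Each genotype is a single line, so differences between genotypes belong to the whole line and cannot be assigned to this stretch of D11. The libraries hold bulk root, in which fewer cells of a type and less RNA per cell cannot be told apart, and with no annotation the tissue could not be checked by marker genes.

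Values are normalized expression values as deposited, on a scale close to CPM, and differences are given as log2 fold changes of the value plus 0.5, which understates changes of low genes. A gene was called where limma gave a Benjamini-Hochberg adjusted p below 0.01 over all 46813 genes tested and the log2 fold change exceeded 1 in either direction. The column totals ran from 852215 to 1096547, with the 3 SJ2_ctl libraries lowest, and replicate libraries correlated at 0.937 to 0.965. Setting all totals equal moved the median of all genes by −0.28 in NemX_ctl against SJ2_ctl, by −0.15 in WMJJ_ctl against SJ2_ctl, by −0.13 in NemX_ctl against WMJJ_ctl and by −0.17 in the SJ2 response. The table itself does not give the reads behind single values, and the read numbers that the study lists entered no fit. Within the groups, 6 libraries deviated together: replicate 3 of SJ2_ctl, SJ2_rkn, WMJJ_ctl, WMJJ_rkn and NemX_ctl, and replicate 1 of NemX_rkn. Their deviations from the group means over all genes tested correlated between groups at 0.193 to 0.442, and with those of the other 12 libraries at −0.299 to −0.072. By the study's own list they are also the libraries with the most reads. They had 53026 to 53850 genes above 0, beside 51290 to 53120 in the others. Each group holds 1 of them, so they are balanced over the comparisons. With a term for these libraries, chosen after seeing the data, all 45 values of the named genes kept their direction and their call. Member means over all libraries ran from 1.02 for Gohir.D11G324100 to 272 for Gohir.D11G314900, with a median of 8.24. Of the members, 85 had a mean of at least 10 and 67 a mean below 5, and 181 were above 0 in all 18 libraries. None of the 12 comparisons called 112 of the 203 members. The share of all genes left uncalled in this way was not counted.

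The first question was which members differed between genotypes without the nematode. The comparisons with WMJJ called a larger share of the members than of all genes, and that of NemX with SJ2 did not. In WMJJ_ctl, 20 members were higher than in SJ2_ctl (9.85%, beside 7.76% of all genes tested) and 23 were lower (11.3%, beside 5.82%). In both directions together this was 21.2% of the members, beside 13.6% of all genes and 12.0% of the other 2277 D11 genes. Against WMJJ_ctl, NemX_ctl had 20 members higher (9.85%, beside 3.74% of all genes) and 11 lower (5.42%, beside 2.09%). Together these were 15.3% of the members, 5.84% of all genes and 5.58% of the rest of D11. Between NemX_ctl and SJ2_ctl, 16 members were higher in NemX_ctl (7.88%, beside 9.37% of all genes) and 10 lower (4.93%, beside 4.11%), or 12.8% in all, beside 13.5%. The 10 lower members were 5 without SJ2_ctl replicate 1 and 6 when the compared libraries were fitted alone. These 3 comparisons share their control libraries pairwise. With equal library totals the NemX_ctl to SJ2_ctl counts became 13 higher and 23 lower. With median-of-ratios scaling, by the median ratio of each library to the gene means, they were 18 and 10. The balance of directions between these genotypes thus turned with equal totals and held with the other scaling. The median difference over all members was 0.00 in NemX_ctl against SJ2_ctl, where that over all genes was −0.06.

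**Figure D1:**
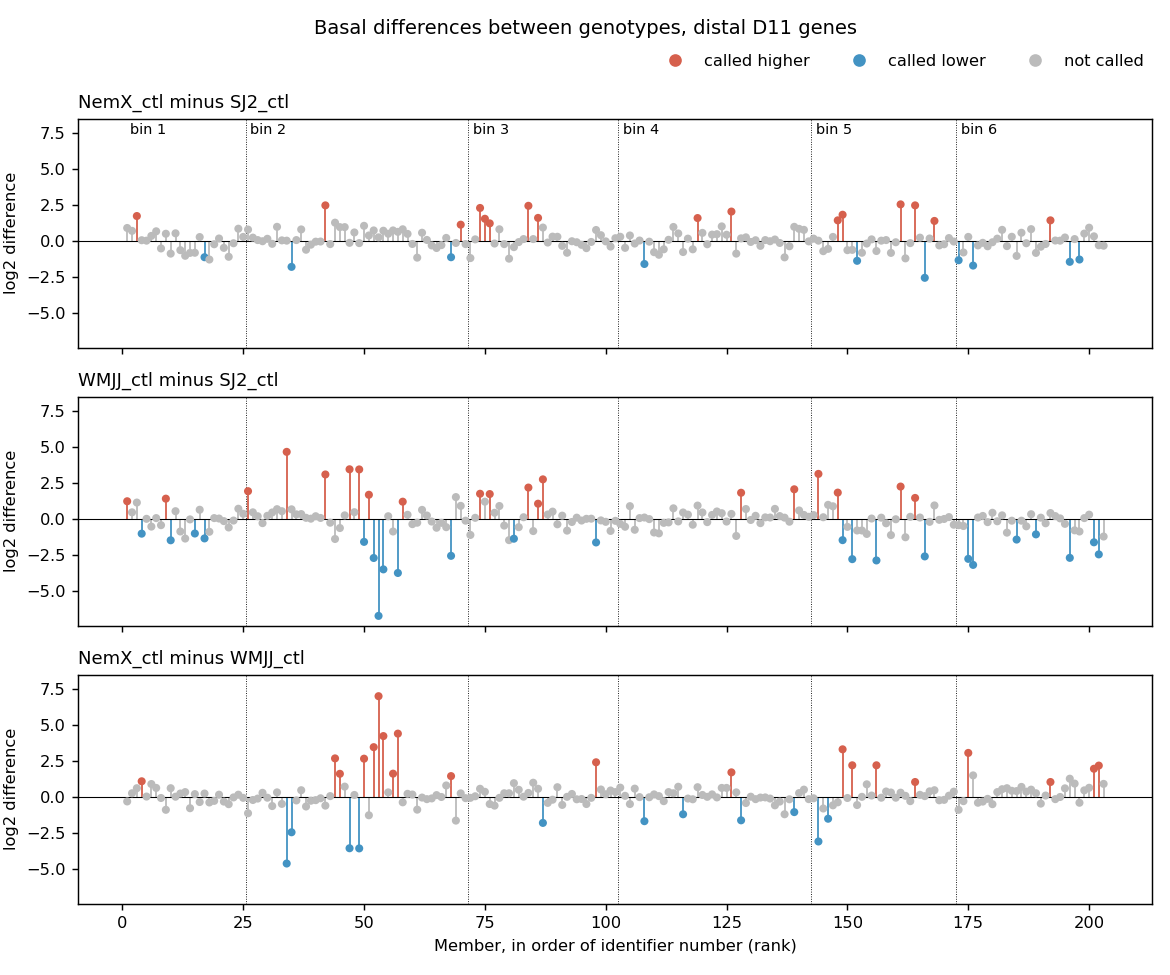
Log2 differences between control libraries of the 203 members in order of identifier number, in 3 panels for the 3 pairs of genotypes. Each stem is 1 gene, red where called higher, blue where called lower and grey where not called, and dotted lines part the 6 identifier bins. The longest stems, at −6.75 in WMJJ_ctl minus SJ2_ctl and at 6.98 in NemX_ctl minus WMJJ_ctl, belong to the same gene of bin 2, Gohir.D11G312600.

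In a run of neighbours from Gohir.D11G312500 to Gohir.D11G312690, next to the excluded Gohir.D11G312800, 4 of 6 members were far lower in WMJJ than in the other genotypes, among them the member with the largest genotype difference. Gohir.D11G312600 had values of 91.4, 117 and 106 in SJ2_ctl and of 120, 141 and 108 in NemX_ctl, but of 0, 0.775 and 0.948 in WMJJ_ctl. Infested libraries had 41.7, 57.0 and 50.6 in SJ2_rkn, 121, 78.5 and 110 in NemX_rkn and 0, 0 and 0.269 in WMJJ_rkn. All 6 WMJJ libraries were below 1, and the lowest library of the other genotypes was at 41.7. The log2 fold change was −6.75 (SE 0.29, adjusted p = 1.3e-12) for WMJJ_ctl against SJ2_ctl and 6.98 (SE 0.29, adjusted p = 7.13e-13) for NemX_ctl against WMJJ_ctl. As values near 0 depend on the constant added, the first of these was −7.86 with 0.1 and −6.12 with 1.

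Its neighbours followed the same order at a smaller distance. Gohir.D11G312500 had 54.7, 71.4 and 57.0 in SJ2_ctl, 10.7, 8.68 and 7.07 in WMJJ_ctl and 108, 90.8 and 99.2 in NemX_ctl. The 3 genotypes did not overlap, and the log2 fold change of WMJJ_ctl against SJ2_ctl was −2.73 (SE 0.17, adjusted p = 2.1e-10). Gohir.D11G312636 had 83.0, 86.0 and 105 in SJ2_ctl, 7.76, 6.56 and 8.11 in WMJJ_ctl and 158, 175 and 115 in NemX_ctl, again in 3 separate ranges. Its log2 fold change was −3.52 (SE 0.22, adjusted p = 2.29e-10) for WMJJ_ctl against SJ2_ctl and 4.21 (SE 0.22, adjusted p = 2e-11) for NemX_ctl against WMJJ_ctl. For Gohir.D11G312690 the values were 25.8, 27.3 and 29.1 in SJ2_ctl, 1.46, 1.30 and 1.89 in WMJJ_ctl and 40.6, 49.6 and 36.7 in NemX_ctl. NemX_ctl was the highest group for each of these 3 genes, but its excess over SJ2_ctl, a log2 difference of 0.61 to 0.71, stayed under the fold threshold. The adjusted p of this excess was 0.00339 for Gohir.D11G312500. For Gohir.D11G312636 and Gohir.D11G312690 it was 0.0239 and 0.024, so these missed the p threshold as well.

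The other genes of the run differed less or were not called. Gohir.D11G312672 had 19.5, 14.4 and 14.1 in SJ2_ctl, 9.94, 11.1 and 5.16 in WMJJ_ctl and 32.7, 23.2 and 23.5 in NemX_ctl, and was called among controls only for NemX_ctl against WMJJ_ctl (log2 fold change 1.60, SE 0.27, adjusted p = 0.000291). For Gohir.D11G312654 the groups overlapped, at 3.44 to 5.11 in SJ2_ctl, 3.89 to 5.61 in WMJJ_ctl and 4.77 to 8.63 in NemX_ctl. A short way before the run, Gohir.D11G312368 had 5.68, 6.70 and 5.56 in SJ2_ctl, 2.19, 1.69 and 1.11 in WMJJ_ctl and 12.7, 15.6 and 10.4 in NemX_ctl, the same order of genotypes. This gene was picked after its values were seen. Reads were assigned to the transcripts of a different variety, TM-1, and how they were shared among near-identical copies in this stretch was not tested, so the level of a single identifier here is uncertain.

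**Figure D2:**
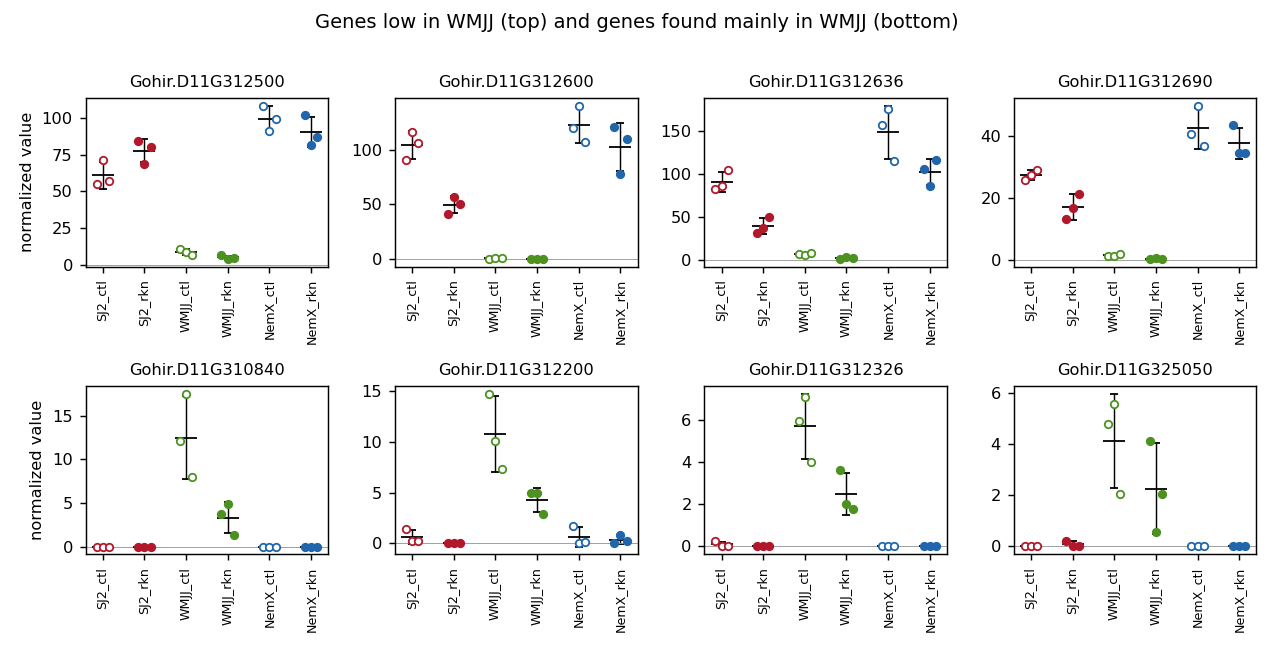
Normalized values in every library (points, open for ctl and filled for rkn, with group mean and SD in black) of 8 members, on linear axes. In the upper row the WMJJ libraries (green) lie at or near 0 while SJ2 (red) and NemX (blue) do not; in the lower row the WMJJ libraries alone stand clear of 0.

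In the same bin, at lower numbers than this run and not adjacent to each other, lay 3 genes with the opposite pattern, found mainly in WMJJ. Gohir.D11G310840 had 12.1, 17.5 and 8.02 in WMJJ_ctl and 3.77, 4.85 and 1.37 in WMJJ_rkn, and was listed at 0 in all 12 other libraries. The difference was called between the control libraries (adjusted p = 7.55e-09 against SJ2_ctl and 1.68e-08 against NemX_ctl), and no fold change is given against groups listed at 0. Gohir.D11G312326 had 5.95, 7.09 and 4.002 in WMJJ_ctl and 3.60, 1.99 and 1.77 in WMJJ_rkn, and was listed at 0 elsewhere except for 0.212 in 1 SJ2_ctl library. Gohir.D11G312200 had 14.8, 10.1 and 7.36 in WMJJ_ctl, against 1.42, 0.207 and 0.250 in SJ2_ctl and 1.74, 0 and 0.163 in NemX_ctl. Its log2 fold change was 3.43 (SE 0.51, adjusted p = 2.48e-05) for WMJJ_ctl against SJ2_ctl. Further along, Gohir.D11G325050 had 4.77, 5.56 and 2.03 in WMJJ_ctl and 4.11, 0.544 and 2.04 in WMJJ_rkn, and a single library outside WMJJ above 0, at 0.191 in SJ2_rkn. All 4 genes were thus seen in WMJJ and at 0 or near it in the rest. They passed the filter on the mean through their WMJJ libraries alone, so a difference from WMJJ was built into their inclusion, and their number says nothing about the stretch. Gohir.D11G325050 was picked for this pattern after its values were seen.

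Only Gohir.D11G325501 was below 0.5 in all 6 libraries of one genotype and at least 2 in all 6 of another. This pattern was met by 0.493% of the members and 0.453% of all genes tested. Gohir.D11G325501 had 0.324, 0.436 and 0 in WMJJ_ctl and was listed at 0 in the 3 WMJJ_rkn libraries. NemX_ctl had 6.50, 5.30 and 8.46, and NemX_rkn had 4.73, 3.05 and 4.06. SJ2 stood between them, with 0.819, 2.40 and 1.75 in SJ2_ctl, and the log2 fold change of NemX_ctl against SJ2_ctl was 1.80 (SE 0.34, adjusted p = 0.000325). The gene passed the filter on the mean through its NemX libraries, so a high NemX level was favoured by its inclusion.

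NemX_ctl was lower than both other genotypes for 2 members, Gohir.D11G311000 and Gohir.D11G320700. How many of all genes had this pattern was not counted. Gohir.D11G311000 had 20.7, 13.1 and 18.2 in NemX_ctl, against 65.5, 57.6 and 61.6 in SJ2_ctl and 93.7, 86.1 and 113 in WMJJ_ctl. The NemX libraries were lowest with no overlap, at log2 fold changes against SJ2_ctl of −1.82 (SE 0.22, adjusted p = 1.77e-06) and against WMJJ_ctl of −2.47 (SE 0.22, adjusted p = 8.35e-08). With the nematode the NemX to SJ2 difference was −2.45, at 11.5, 16.2 and 9.92 in NemX_rkn and 77.1, 72.5 and 59.6 in SJ2_rkn. It was also the single member called lower in NemX than in SJ2 in both control and infested libraries. Gohir.D11G320700, named after its values were seen, had 1.62 to 4.74 in NemX_ctl, 5.87 to 14.0 in SJ2_ctl and 8.61 to 11.2 in WMJJ_ctl, with log2 differences of −1.62 and −1.70.

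A further set of members was low in SJ2_ctl beside both other genotypes, and the larger differences of NemX_ctl against SJ2_ctl belong here. Gohir.D11G328100 had 7.90, 6.21 and 8.33 in SJ2_ctl, 34.8, 31.6 and 45.2 in WMJJ_ctl and 47.4, 44.9 and 42.4 in NemX_ctl. The log2 fold change of NemX_ctl against SJ2_ctl was 2.52 (SE 0.21, adjusted p = 1.05e-08). Gohir.D11G311680 had 2.23, 1.77 and 0.580 in SJ2_ctl, 16.0, 19.0 and 11.9 in WMJJ_ctl and 9.65, 10.8 and 9.07 in NemX_ctl, where SJ2_ctl again lay below every other control library. Gohir.D11G316600 was low in SJ2_ctl too and is given with the responses. The reverse was seen for Gohir.D11G328600, with 5.58, 5.72 and 11.9 in SJ2_ctl, 1.62, 0.218 and 0.809 in WMJJ_ctl and 1.06, 0.482 and 0.924 in NemX_ctl. Its log2 fold change was −2.58 (SE 0.50, adjusted p = 0.000463) for NemX_ctl against SJ2_ctl and −2.62 (SE 0.50, adjusted p = 0.000413) for WMJJ_ctl against SJ2_ctl, and with 0.1 added in place of 0.5 the adjusted p of the former was 0.0115.

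Along the identifiers, counted in 6 bins of 5000 numbers, the called share of WMJJ_ctl against SJ2_ctl was alike in 5 bins, at 22.6% to 28.3%, where that of all genes was 13.6%. In the other one, bin 4 (320000 to 324999), 2 of the 40 members were called. In bin 2 (310000 to 314999) the calls went both ways, with 7 members higher and 6 lower in WMJJ_ctl. In the last bin, from 330000, 7 of 31 members were lower in WMJJ_ctl and 0 higher. One of them, Gohir.D11G330400, chosen after its values were seen, had 10.6, 13.6 and 8.23 in SJ2_ctl, 2.29, 0.449 and 1.07 in WMJJ_ctl and 15.1, 13.2 and 10.4 in NemX_ctl.

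**Figure D3:**
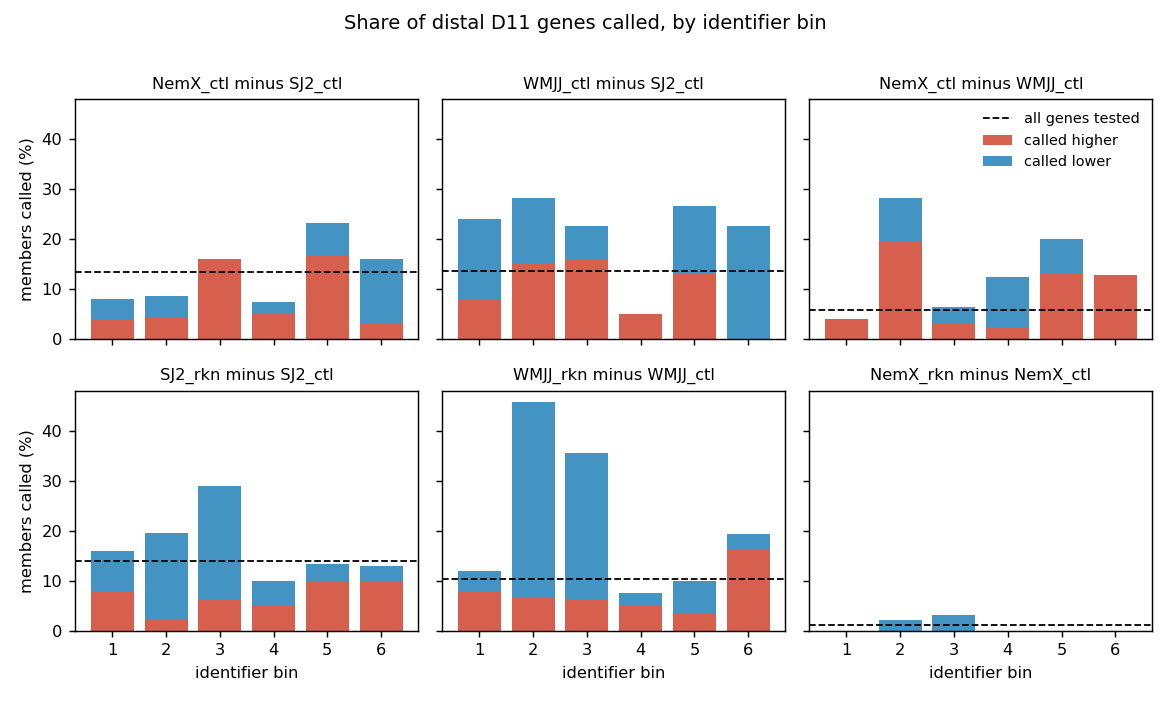
Percent of members called in each of the 6 identifier bins for the 3 basal comparisons (top) and the 3 responses (bottom), red for higher and blue for lower, with the share of all genes tested as a dashed line. The tallest bars are those of the WMJJ response in bins 2 and 3, at 45.7% and 35.5%, mostly lower, against a dashed line at 10.4%.

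The genotype differences were then read again in the infested libraries, which share no library with the controls. In WMJJ_rkn, 10 members were higher and 18 lower than in SJ2_rkn, or 13.8%, where 2.60% of all genes were higher, 2.87% lower and 5.47% either. NemX_rkn had 29 members higher and 12 lower than WMJJ_rkn, or 20.2%, where the shares of all genes were 4.96%, 3.45% and 8.41%. Against SJ2_rkn, NemX_rkn had 19 higher and 2 lower, or 10.3%, where they were 2.88%, 1.81% and 4.69%. Of the 23 members lower in WMJJ_ctl than in SJ2_ctl, 15 were also lower in WMJJ_rkn than in SJ2_rkn, a share of 65.2%, where the share among all genes was 30.0%. Calls in both settings were made for 1.74% of all genes. Of the 20 members higher in NemX_ctl than in WMJJ_ctl, 16 were so in the infested libraries as well, or 80.0%, against 53.1% among all genes, of which 1.99% were called in both. These 16 made up 55.2% of the 29 members higher in NemX_rkn than in WMJJ_rkn. For NemX against SJ2, 6 of 16 higher (37.5%) and 1 of 10 lower were also called in the infested libraries. Among all genes these shares were 18.6% and 14.7%, and 1.74% and 0.605% of all genes were called in both. Of the 20 members higher in WMJJ_ctl than in SJ2_ctl, 7 were so after infestation (35.0%, against 21.6% among all genes, of which 1.68% were called in both), and of the 11 lower in NemX_ctl than in WMJJ_ctl, 7 were (63.6%, against 59.7%, with 1.25% in both). No member was called in opposite directions in control and infested libraries. The difference between these shares was not tested.

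The next question was how the members responded to the nematode in each genotype. In WMJJ, 32 members fell, which is 15.8%, where 4.84% of all genes and 5.31% of the rest of D11 fell. Another 15 members rose, or 7.39%, beside 5.60% of all genes, so that 23.2% were called in either direction, beside 10.4%. In SJ2, 13 members rose (6.40%, beside 8.09% of all genes) and 21 fell (10.3%, beside 5.92%). These counts were 8 and 27 with equal library totals and 14 and 18 with median-of-ratios scaling. In NemX, 0 members rose and 2 fell, or 0.985%, where 0.568% of all genes rose, 0.666% fell and 1.23% did either. At an unadjusted p below 0.05, limma gave 17 members higher and 17 lower in NemX. The share of all genes at that threshold was not counted, so these numbers cannot be set against it. The median response over all members was −0.05 in WMJJ and −0.10 in SJ2, beside −0.0039 and −0.04 over all genes.

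**Figure D4:**
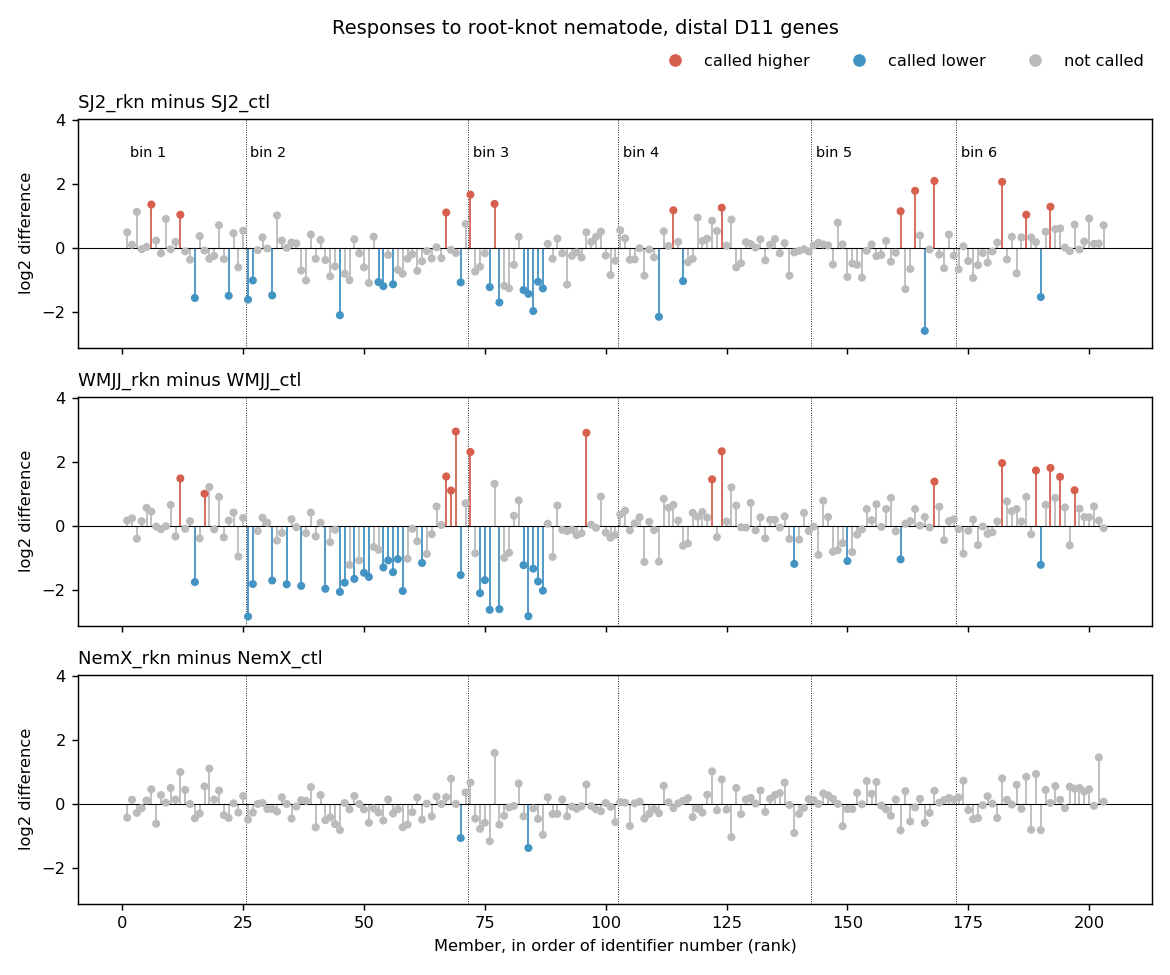
Log2 differences between rkn and ctl libraries of the same 203 members in identifier order, in 3 panels for SJ2, WMJJ and NemX, with red for called higher, blue for called lower and dotted lines between the 6 bins. The blue stems of WMJJ crowd in bins 2 and 3, which hold 27 of its 32 calls, and the NemX panel has 2 called stems.

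The members that fell lay close together. Bins 2 and 3, from 310000 to 319999, held 18 and 9 of the 32 members that fell in WMJJ, and 8 and 7 of the 21 that fell in SJ2. Each of the other 4 bins held at most 2 in either genotype. SJ2 and WMJJ share no library in these responses, and 16 members fell in both, which is 76.2% of the 21 that fell in SJ2 and 16 of the 32 that fell in WMJJ. Among all genes the corresponding shares were 33.9% and 41.5%, and 2.01% of all genes fell in both. Of the 32 members that fell in WMJJ, 29 had a mean response below 0 in SJ2, with a median of −1.04, and 28 had one below 0 in NemX, with a median of −0.49. These were 90.6% and 87.5% of the members that fell in WMJJ. Among all genes that fell in WMJJ, 79.6% had a mean response below 0 in SJ2 and 92.8% in NemX. Their medians were −0.90 in SJ2 and −0.62 in NemX.

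The longest stretch of falling neighbours ran over 5 consecutive members, Gohir.D11G316533, Gohir.D11G316600, Gohir.D11G316800, Gohir.D11G317000 and Gohir.D11G317100, and each of the 5 fell in both SJ2 and WMJJ. The largest change was that of Gohir.D11G316600 in WMJJ, from 135, 130 and 125 in WMJJ_ctl to 18.04, 20.04 and 15.87 in WMJJ_rkn (log2 fold change −2.83, SE 0.28, adjusted p = 2.57e-07). In SJ2 it went from 26.7, 28.1 and 31.7 to 7.09, 6.75 and 22.3, and in NemX from 170, 168 and 134 to 66.2, 56.6 and 56.7. All infested libraries of this gene lay below the control libraries of their genotype. The NemX call (log2 fold change −1.38, SE 0.28, adjusted p = 0.0055) was lost without any one of 5 NemX libraries, with adjusted p of 0.0146 to 0.0298, and held only without NemX_ctl replicate 3. The SJ2 call, at −1.44 (SE 0.28, adjusted p = 0.00041), had an adjusted p of 0.0225 when SJ2 libraries were fitted alone.

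Gohir.D11G317100 had the widest control difference between WMJJ and SJ2 of the 5 (2.73, SE 0.18, adjusted p = 6.79e-10), with 88.3, 73.4 and 78.7 in WMJJ_ctl, 12.1, 11.3 and 11.6 in SJ2_ctl and 21.6, 23.1 and 22.3 in NemX_ctl. Infested libraries had 14.4, 28.2 and 17.4 in WMJJ_rkn, 4.34, 4.49 and 4.82 in SJ2_rkn and 12.5, 10.8 and 10.4 in NemX_rkn. It fell by 2.03 on the log2 scale in WMJJ (SE 0.18, adjusted p = 1.07e-07) and by 1.27 in SJ2 (SE 0.18, adjusted p = 2.05e-05). The NemX value, −0.97 (SE 0.18, adjusted p = 0.00398), passed the p threshold but missed the fold threshold.

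Gohir.D11G317000 had 48.2, 47.4 and 44.4 in WMJJ_ctl and 14.2, 15.3 and 11.7 in WMJJ_rkn, with 76.7, 67.4 and 61.7 in NemX_ctl and 56.3, 41.1 and 51.7 in NemX_rkn. Its SJ2 change, from 19.0, 23.1 and 26.0 to 9.04, 7.26 and 17.6, was −1.06 (SE 0.23, adjusted p = 0.00113), and dropped below the fold threshold without SJ2_ctl replicate 3 (−0.96), SJ2_rkn replicate 1 (−0.96) or SJ2_rkn replicate 2 (−0.81), and had an adjusted p of 0.026 in SJ2 libraries alone. Gohir.D11G316800 went from 3.83, 8.27 and 7.30 to 0.966, 1.08 and 1.56 in SJ2 and from 2.23, 2.80 and 4.94 to 0.892, 1.09 and 0.872 in WMJJ. In NemX the groups overlapped, at 4.87, 6.96 and 8.76 in NemX_ctl and 6.49, 5.58 and 6.04 in NemX_rkn. Gohir.D11G316533, the lowest of the 5, went from 3.47, 3.01 and 3.00 to 1.53, 0.781 and 0.697 in SJ2 and from 4.14, 4.60 and 2.06 to 1.62, 1.26 and 0.753 in WMJJ. Its SJ2 call was lost without SJ2_ctl replicate 1, SJ2_rkn replicate 2 or SJ2_rkn replicate 3, with adjusted p of 0.0149 to 0.0168, and in SJ2 libraries alone, at 0.0113.

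**Figure D5:**
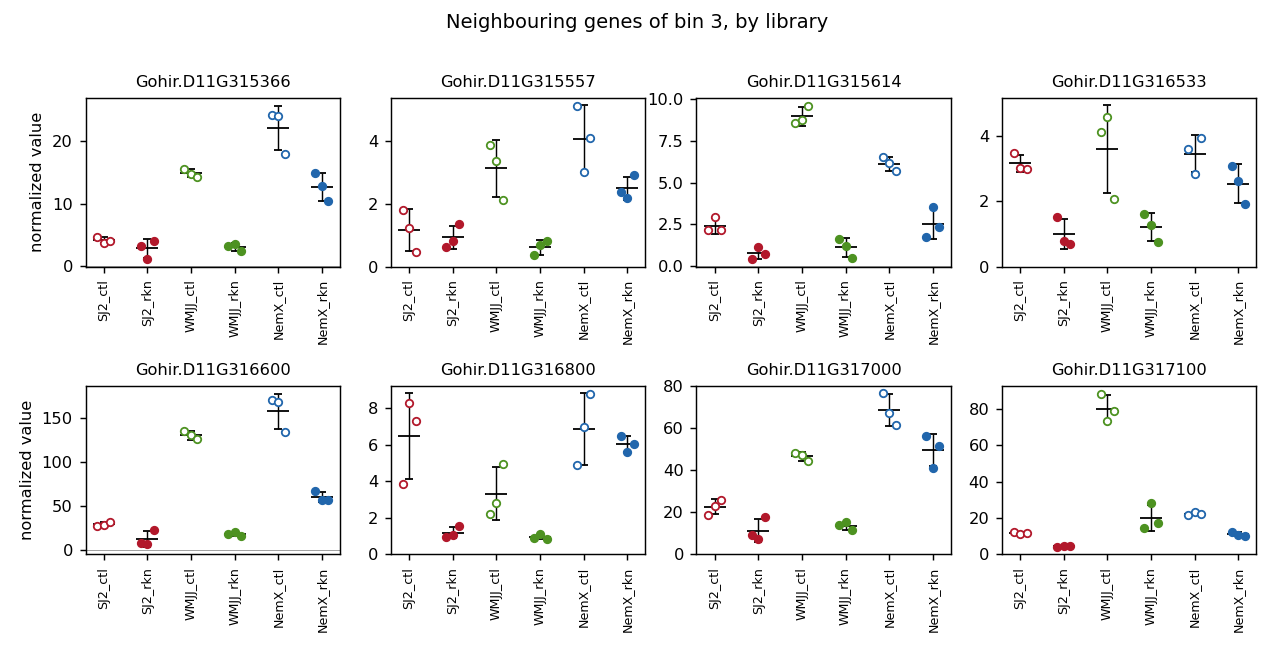
Normalized values in every library of 8 members of bin 3, on linear axes from 0. The genes form separate runs of neighbours, with other members between the runs. Points are open for ctl and filled for rkn, with group mean and SD in black. For Gohir.D11G316600 the infested libraries of WMJJ (green) drop from 125 to 135 down to 15.87 to 20.04, close to those of SJ2 (red), while those of NemX (blue) stay at 56.6 to 66.2.

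A short way before them, Gohir.D11G315366, Gohir.D11G315557 and Gohir.D11G315614 were higher in NemX_ctl than in SJ2_ctl and fell in WMJJ. Gohir.D11G315366 had 4.66, 3.74 and 4.08 in SJ2_ctl, 15.6, 14.8 and 14.2 in WMJJ_ctl and 24.3, 24.1 and 18.1 in NemX_ctl, so SJ2_ctl lay well below the others. Under the nematode WMJJ_rkn had 3.19, 3.63 and 2.48, SJ2_rkn 3.30, 1.19 and 4.12, and NemX_rkn 14.9, 12.8 and 10.5. The WMJJ response was −2.11 (SE 0.28, adjusted p = 1.02e-05), and that of NemX, −0.78 (SE 0.28), had an adjusted p of 0.126. Gohir.D11G315614 had 8.56, 8.76 and 9.63 in WMJJ_ctl and 1.62, 1.23 and 0.476 in WMJJ_rkn, and fell by 2.63 on the log2 scale (SE 0.31, adjusted p = 2.36e-06). Its basal excess in NemX_ctl over SJ2_ctl, 1.20 (SE 0.31, adjusted p = 0.00564), was lost with equal totals, with 0.1 added and without NemX_ctl replicate 1, 2 or 3 or SJ2_ctl replicate 1 or 3, at adjusted p of 0.0129 to 0.0254. That of Gohir.D11G315557, 1.52 (SE 0.34, adjusted p = 0.00206), was lost without NemX_ctl replicate 1 (0.0153) or SJ2_ctl replicate 3 (0.0206) and in the compared libraries alone (0.0157).

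In WMJJ a second run of 5 consecutive members fell, Gohir.D11G312636, Gohir.D11G312654, Gohir.D11G312672, Gohir.D11G312690 and Gohir.D11G313100, at the end of the genes that were low in WMJJ without the nematode. Of the 5, Gohir.D11G312654 was not one of those low genes, and Gohir.D11G312672 was not called lower in WMJJ_ctl than in SJ2_ctl. Nor was Gohir.D11G313100 one of the low genes. It had 66.1, 66.5 and 53.5 in WMJJ_ctl, 28.0, 24.2 and 28.9 in SJ2_ctl and 47.5, 56.7 and 38.5 in NemX_ctl, and 15.3, 15.8 and 12.9 in WMJJ_rkn. It fell by 2.04 on the log2 scale in WMJJ (SE 0.19, adjusted p = 1.27e-07), while the SJ2 and NemX changes, −0.81 and −0.73 (both SE 0.19), were under the fold threshold. Gohir.D11G312636 went from 7.76, 6.56 and 8.11 to 1.92, 4.23 and 2.44 in WMJJ and from 83.0, 86.0 and 105 to 32.3, 37.0 and 50.1 in SJ2. The 2 falls were alike in size on the log2 scale, at −1.30 and −1.20 (both SE 0.22), at levels that did not overlap.

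The smaller falls of this run were less firm. Gohir.D11G312672 went from 9.94, 11.1 and 5.16 to 4.40, 2.25 and 1.96 in WMJJ, and Gohir.D11G312690 from 1.46, 1.30 and 1.89 to 0.461, 0.598 and 0.427. The change of the latter, −1.04 (SE 0.19, adjusted p = 0.000463), missed the fold threshold without WMJJ_ctl replicate 3 (−0.92) or WMJJ_rkn replicate 3 (−0.99), and with 1 in place of 0.5 added (−0.77). That of Gohir.D11G312654, from 5.61, 3.89 and 4.77 to 2.09, 1.49 and 2.38, was −1.08 (SE 0.29, adjusted p = 0.00865), and was lost without any one of the 6 WMJJ libraries and without any one of 5 others (NemX_ctl replicate 2, NemX_rkn replicate 3, SJ2_ctl replicates 2 and 3 and SJ2_rkn replicate 3), at adjusted p of 0.01 to 0.0446. Fitted on the WMJJ libraries alone, the falls of Gohir.D11G312636, Gohir.D11G312654, Gohir.D11G312672 and Gohir.D11G312690 had adjusted p of 0.0197 to 0.0324, and 18 in place of 32 members fell in WMJJ.

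Gohir.D11G310000, at the start of bin 2, fell most in WMJJ among the members. It had 27.8, 25.1 and 17.6 in WMJJ_ctl and 2.12, 3.72 and 2.73 in WMJJ_rkn, so it fell by 2.84 on the log2 scale (SE 0.32, adjusted p = 1.72e-06). SJ2 went from 3.74, 8.20 and 6.19 to 1.02, 2.97 and 1.13 (−1.62, SE 0.32, adjusted p = 0.000655), whereas NemX had 9.62, 13.99 and 7.77 without and 7.05, 6.14 and 8.15 with the nematode. The control libraries of WMJJ were the highest of the 3 genotypes, and after infestation those of NemX were. In SJ2 the largest falls were those of Gohir.D11G328600, from 5.58, 5.72 and 11.9 to 1.57, 0 and 1.51 (−2.60, SE 0.50, adjusted p = 0.000429), and of Gohir.D11G321000, from 28.4, 25.6 and 41.2 to 6.32, 3.73 and 11.7 (−2.16, SE 0.38, adjusted p = 0.000165).

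The 2 members that fell in NemX also fell in SJ2 and WMJJ. Besides Gohir.D11G316600, this was Gohir.D11G314700, which went from 41.9, 40.1 and 42.1 to 20.3, 18.6 and 19.6 in NemX, from 19.1, 20.9 and 16.8 to 9.25, 6.13 and 11.4 in SJ2 and from 39.0, 34.6 and 32.5 to 10.9, 16.9 and 8.75 in WMJJ. In each genotype control and infested libraries did not overlap. The NemX change was −1.07 (SE 0.21, adjusted p = 0.00488), and without any one of the 6 NemX libraries its adjusted p was 0.0156 to 0.0237, which is past the threshold of 0.01.

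Members that rose were fewer. SJ2 and WMJJ shared 7 of them, which is 53.8% of the 13 that rose in SJ2 and 46.7% of the 15 that rose in WMJJ, and among all genes these shares were 37.5% and 54.1%, with 3.03% of all genes rising in both. One of the 7 was Gohir.D11G331500, from 58.9, 56.6 and 70.9 to 235, 218 and 348 in SJ2 (2.07, SE 0.29, adjusted p = 1.09e-05) and from 47.8, 80.6 and 100 to 256, 230 and 396 in WMJJ (1.97, SE 0.29, adjusted p = 3.07e-05). In NemX it had 79.6, 90.1 and 159 without and 244, 145 and 171 with the nematode, ranges that overlap. Gohir.D11G328900 went from 13.6, 9.66 and 7.31 to 49.3, 41.9 and 40.7 in SJ2 and from 18.1, 18.1 and 21.1 to 51.9, 54.3 and 46.6 in WMJJ. NemX libraries of this gene were at 30.6, 26.9 and 22.1 without and 36.9, 33.4 and 35.4 with the nematode, above the other control libraries and below the other infested ones.

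Some increases were seen in WMJJ. Gohir.D11G318500 had 0.639, 0.431 and 0.157 in WMJJ_ctl and 6.55, 3.24 and 10.9 in WMJJ_rkn (2.92, SE 0.46, adjusted p = 7.11e-05), while the other 4 groups ran from 0 to 1.75. Gohir.D11G314500, the last of 3 neighbours from Gohir.D11G314300 that rose in WMJJ, had 0, 2.16 and 2.48 in WMJJ_ctl and 12.5, 7.86 and 16.8 in WMJJ_rkn. Outside WMJJ it was listed at 0 except for 0.203 in 1 SJ2_ctl library. The WMJJ response of Gohir.D11G314500 was 2.96 (SE 0.49, adjusted p = 0.00014), with an adjusted p of 0.0186 when WMJJ libraries were fitted alone. This gene passed the filter on the mean through its WMJJ_rkn libraries, so a high WMJJ_rkn level was favoured by its inclusion. The same limit holds for Gohir.D11G318500, of which only the WMJJ_rkn libraries were above 1.75.

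The responses themselves were compared between genotypes by interaction terms. The SJ2 response exceeded that of NemX for 6 members and was below it for 1, or 3.45%, where 5.22% of all genes were above, 1.83% below and 7.05% either. Between WMJJ and NemX, 3 members had the higher value in WMJJ and 5 the lower, or 3.94%, where the shares of all genes were 1.05%, 0.414% and 1.46%. Between SJ2 and WMJJ, the counts were 4 and 2, or 2.96%, where they were 3.95%, 1.12% and 5.08%. With equal library totals the 3 splits were 5 and 5, 2 and 6, and 2 and 3. With median-of-ratios scaling they stayed at 6 and 1, 3 and 5, and 4 and 2. The directions of the SJ2 comparisons thus changed with equal totals but not with the other scaling. The WMJJ to NemX count of 8 was 1 without NemX_rkn replicate 1 or 3 or WMJJ_ctl replicate 1 or 2, 2 without NemX_ctl replicate 1 or WMJJ_rkn replicate 1 or 3, and 3 without NemX_ctl replicate 3.

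Gohir.D11G328100 was the single member that rose in one genotype and fell in another. In SJ2 it went from 7.90, 6.21 and 8.33 to 11.96, 19.96 and 20.95 (1.15, SE 0.21, adjusted p = 0.000272), and in WMJJ from 34.8, 31.6 and 45.2 to 13.2, 20.3 and 20.1 (−1.05, SE 0.21, adjusted p = 0.000954). NemX went from 47.4, 44.9 and 42.4 to 21.3, 28.0 and 26.4, a change of −0.83 (SE 0.21) that missed the fold threshold. After infestation the libraries of SJ2 and WMJJ overlapped, where those without the nematode had not. The responses of SJ2 and WMJJ differed by 2.20 (SE 0.30, adjusted p = 4.63e-05) and those of SJ2 and NemX by 1.98 (SE 0.30, adjusted p = 9.76e-05).

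Gohir.D11G333000 rose in SJ2 and WMJJ while its NemX libraries stayed in one range. It had 7.88, 10.7 and 8.66 in SJ2_ctl and 23.7, 20.5 and 24.4 in SJ2_rkn, 8.40, 13.0 and 15.7 in WMJJ_ctl and 42.6, 45.0 and 43.2 in WMJJ_rkn, and 22.4, 25.8 and 26.6 in NemX_ctl and 21.5, 26.6 and 28.6 in NemX_rkn. The NemX control libraries thus lay within or near the infested range of SJ2. The NemX response of 0.03 (SE 0.19) was below that of WMJJ by an interaction of 1.79 (SE 0.27, adjusted p = 0.000657) and below that of SJ2 by 1.26 (SE 0.27, adjusted p = 0.0025).

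The interaction of Gohir.D11G310000 between WMJJ and NemX was −2.35 (SE 0.46, adjusted p = 0.00541). It was lost, with adjusted p of 0.0129 to 0.0213, without NemX_ctl replicate 1 or 3, NemX_rkn replicate 1 or 3, WMJJ_ctl replicate 1 or 2, or WMJJ_rkn replicate 1 or 3. For Gohir.D11G316800, which fell in SJ2 and overlapped in NemX, the interaction was −1.85 (SE 0.44, adjusted p = 0.00624). It was lost, at 0.0117 to 0.0221, without any NemX_rkn library, NemX_ctl replicate 1 or 2, SJ2_ctl replicate 2 or 3, or SJ2_rkn replicate 1 or 2. The interaction of Gohir.D11G314500 between SJ2 and WMJJ, −3.13 (SE 0.70, adjusted p = 0.00513), was lost without SJ2_ctl replicate 1, any SJ2_rkn library or WMJJ_rkn replicate 1 or 3, at 0.0102 to 0.0191, in the compared libraries alone, at 0.0178, and with 0.1 added, at 0.0588. That value rests on libraries listed at 0, for a gene that passed the filter on the mean through its WMJJ_rkn libraries.

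The members whose identifier does not end in 00 had more falling genes in WMJJ. They numbered 37, with a median level of 3.26, against 9.42 in the 166 members whose identifier ends in 00. In the WMJJ response, 17 of the 37 fell and 1 rose, or 48.6%, and 15 of the 166 fell and 14 rose, or 17.5%. Over all genes tested the 2 kinds of identifier were alike in this response, with 4.82% of 4460 genes that do not end in 00 and 4.84% of 42353 that do falling in WMJJ. Their median levels were 4.12 and 9.19. Several genes of the runs above carry such identifiers, among them Gohir.D11G312636, Gohir.D11G312690 and Gohir.D11G315366. What sets these identifiers apart was not tested.

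The excluded gene Gohir.D11G312800, a TIR-NBS-LRR candidate that lies by number between Gohir.D11G312690 and Gohir.D11G313100, had 25.4, 33.6 and 27.4 in NemX_ctl, 6.81, 7.16 and 7.52 in SJ2_ctl and 5.29, 5.72 and 3.99 in WMJJ_ctl. Another TIR-NBS-LRR candidate, Gohir.A11G297600 on A11, had 126, 115 and 93.4 in NemX_ctl, 41.2, 55.4 and 40.6 in SJ2_ctl and 92.2, 100 and 76.0 in WMJJ_ctl. The members of the run from Gohir.D11G312500 to Gohir.D11G312690 also had their highest control mean in NemX_ctl. None of them was called for NemX_ctl against SJ2_ctl. SJ2_ctl lay nearer to NemX_ctl than to WMJJ_ctl for Gohir.D11G312500, Gohir.D11G312600, Gohir.D11G312636 and Gohir.D11G312690. For Gohir.D11G312800 it lay nearer to WMJJ_ctl, and so it did for Gohir.D11G312654, where the groups overlapped. Gohir.D11G312672 had SJ2_ctl nearer to WMJJ_ctl by mean value (16.0, beside 8.73 and 26.5 in NemX_ctl), but nearer to NemX_ctl on the log2 scale.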

How the data were processed

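Root RNA was sequenced in 18 libraries, 3 for each of the 6 groups. Per the labels and methods, the authors used FastQC 0.11.9, Trimmomatic 0.39, kallisto 0.46.1 against TM-1 transcripts and edgeR 3.13. The deposited signal values were normalized by the authors in a way not given in the sources used here, and they lie near CPM. Since they are not whole counts, the limma 3.58.1 fit in R 4.3.3 replaced a count test. It used log2(value + 0.5), a trend and 1 coefficient per group, on 46813 genes with a mean of at least 1 (7695 were left out), with Benjamini-Hochberg adjustment over all of them and calls where adjusted p was below 0.01 and log2 values differed by more than 1. The fit was tested on simulated data. The members, bins and gene rules were chosen with earlier results of these data known. Named genes are the 2 largest called increases and decreases without overlap per basal or response comparison, the largest interactions, genes silent in one genotype, and the longest runs of calls. Alternatives were other constants, filters and scalings, a replicate term, fits on the compared libraries, and leaving out each library. Methods mention a second library kit for a part of the samples without naming its libraries, so kit was not tested. Whether those are the libraries that deviate together is not known. A term for 6 libraries that deviate together was added after seeing the data. P-values measure the spread between libraries.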

Additional observations from a re-analysis of the deposited data

Results flagged for a closer look

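By the interaction term of limma, the responses of 2 genotypes differed for 21 values over 17 members. The thresholds were a Benjamini-Hochberg adjusted p below 0.01 over all genes tested and an absolute log2 difference above 1. Shares of all genes are given above for each pair of genotypes, and the share with any such call was not counted. Between SJ2 and NemX, the response was higher in SJ2 for Gohir.D11G328100 (1.98), Gohir.D11G328400 (1.90), Gohir.D11G328900 (1.68), Gohir.D11G321300 (1.31), Gohir.D11G333000 (1.26) and Gohir.D11G321900 (1.11), and lower for Gohir.D11G316800 (−1.85).

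Between WMJJ and NemX, the response was lower in WMJJ for Gohir.D11G310000 (−2.35), Gohir.D11G316300 (−1.96), Gohir.D11G312100 (−1.81), Gohir.D11G310100 (−1.55) and Gohir.D11G313100 (−1.31), and higher for Gohir.D11G333000 (1.79), Gohir.D11G322400 (1.57) and Gohir.D11G314300 (1.34). The 5 that were lower in WMJJ all belong to bins 2 and 3. Gohir.D11G316300 had 41.3, 42.2 and 48.6 in WMJJ_ctl, 5.38, 5.22 and 11.01 in WMJJ_rkn, 47.4, 41.6 and 36.1 in NemX_ctl and 27.6, 25.5 and 25.8 in NemX_rkn. Most of these 8 calls were lost when single libraries were left out, as given with the counts.

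Between SJ2 and WMJJ, the response was higher in SJ2 for Gohir.D11G328100 (2.20), Gohir.D11G328400 (1.26), Gohir.D11G313100 (1.23) and Gohir.D11G312500 (1.01), and lower for Gohir.D11G314500 (−3.13) and Gohir.D11G332400 (−1.56). Gohir.D11G312500 had 83.9, 68.8 and 80.2 in SJ2_rkn beside 54.7, 71.4 and 57.0 in SJ2_ctl, and 6.65, 4.44 and 5.09 in WMJJ_rkn beside 10.7, 8.68 and 7.07 in WMJJ_ctl, and neither response alone passed the fold threshold.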

How the results depend on the processing

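For the named genes, 1123 of 1200 alternative values kept their direction and their call and 77 fell below a threshold, with 0 reversed. The shares of all genes called under the alternatives were not counted, so these counts have no such share beside them. With a mean of at least 5 required, the 67 members below it were not tested, which lowers counts by itself. The counts higher and lower then became 12 and 13 in WMJJ_ctl against SJ2_ctl. They were 3 and 11 in WMJJ_rkn against SJ2_rkn and 19 and 2 in NemX_rkn against WMJJ_rkn. At this filter 4 were lower in NemX_ctl against SJ2_ctl and 5 in NemX_ctl against WMJJ_ctl. In NemX_rkn against SJ2_rkn 1 was lower, and 1 was higher in the NemX response. Fits on the compared libraries alone, with fewer samples, gave 6 lower in NemX_ctl against SJ2_ctl and 18 in the WMJJ response. Equal library totals gave 23 lower in NemX_ctl against SJ2_ctl, 8 higher in the SJ2 response and 2 higher in the NemX response, where adding 1 before the log2 gave 1 higher. Leaving out single libraries gave 5 to 12 lower in NemX_ctl against SJ2_ctl (5 without SJ2_ctl replicate 1), 7 to 12 lower in NemX_ctl against WMJJ_ctl (7 without WMJJ_ctl replicate 1), and 0 to 1 higher (1 without NemX_ctl replicate 3 or replicate 1 or 3 of SJ2_ctl or WMJJ_ctl) and 0 to 2 lower in the NemX response (1 without NemX_rkn replicate 1, 0 without NemX_ctl replicate 1 or 2 or NemX_rkn replicate 2 or 3). It gave 1 to 10 interactions between WMJJ and NemX and 3 to 9 between SJ2 and WMJJ (3 without WMJJ_rkn replicate 3). Where a count moved and no reason is named, the cause was not tested.

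Of the same-number pairs of libraries, 20 of 45 correlated above 0.1 (−0.224 to 0.442), beside 18 of 90 other pairs (−0.299 to 0.347). The replicate number was not taken as a pairing, since the libraries that deviated together carry number 3 in 5 groups and 1 in NemX_rkn. A term for those 6 libraries gave 2 members higher in the NemX response and interaction counts of 12 for SJ2 with NemX, 11 for WMJJ with NemX and 10 for SJ2 with WMJJ, and moved the other counts by at most 1.5 times. A replicate block gave 32 members lower in the WMJJ response and 24 in WMJJ_ctl against SJ2_ctl, 15 higher and 22 lower in the SJ2 response, and interaction counts of 9, 8 and 8 for SJ2 with NemX, WMJJ with NemX and SJ2 with WMJJ, and it moved no count of calls by over 1.5 times. Values near 0 carry a counting error that the table does not give.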
